A study of Mus musculus with 13 samples.

Results

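The genes described here encode the T cell receptor complex and the proteins that carry its signal: 43 genes listed by function, from the CD3 chains at the cell surface to calcium, kinase and NF-kB branches and the phosphatases and ligases that end the signal. Of these, 39 had a probe set assigned to that gene alone and were measured, and for each the brightest such probe set over the 13 arrays was used, while Cd247, Lck, Mapk3 and Nfkb1 were not analysed here. All 39 lay above the floor for testing (log2 expression above 4.31, the median of all values, on at least 4 arrays) and are read against 12710 tested genes among 22180 in the whole series.

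Splenocytes of C57Bl/6 mice carrying CFSE, a dye diluted at each division, were transferred into B6D2F1 hosts to start graft-versus-host disease, and mice of both strains were 10 to 12 weeks old. All hosts received donor cells. They were then given vehicle on days 0, 1 and 2 (4 arrays), TCDD at 15 µg/kg on day 0 alone (4 arrays) or Cl-BBQ at 10 mg/kg on days 0, 1 and 2 (5 arrays), so that dose and schedule differ between the ligands and the TCDD hosts were dosed on fewer days than the vehicle hosts. TCDD (dioxin) and Cl-BBQ both bind the aryl hydrocarbon receptor (AhR), which on binding enters the nucleus and acts as a transcription factor. CD4+ cells of spleen and lymph node that had gone through at least 2 divisions were sorted at 72 h, and each array is described as a biological replicate. The labels do not say what the vehicle was.

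An antigen bound by the T cell receptor is relayed by the CD3 chains, whose tails are phosphorylated by Lck and Fyn and then bind the kinase ZAP-70. ZAP-70 phosphorylates the adaptors LAT and SLP-76, which gather phospholipase C gamma and exchange factors of Ras, and from there the signal runs through calcium to NFAT, through Ras to the MAP kinases and through protein kinase C theta, BCL10 and MALT1 to NF-kB. In CD4+ cells meeting host antigen this pathway starts division, and phosphatases, ubiquitin ligases and diacylglycerol kinases limit it. Array values report RNA, not phosphorylation, and in a bulk sample fewer cells of a type cannot be told apart from less RNA per cell.

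Most of these genes differed little between the groups. With TCDD, Cd6 and Zap70 passed the test, and with Cl-BBQ, Cd6, Zap70 and Grap2, all of them higher than with vehicle and by at most 1.44-fold. The test was limma on log2 values of all 12710 genes, called at a Benjamini-Hochberg adjusted p under 0.05, which called 6.71% of all genes with TCDD and 11.3% with Cl-BBQ, against 5.13% and 7.69% of the 39. Among genes called higher alone, the shares over all genes were 3.21% with TCDD and 5.31% with Cl-BBQ. With so few calls these shares are near the background, and the count is no result about the receptor genes. At an unadjusted p under 0.05 were 10 of the 39 with TCDD and 15 with Cl-BBQ, beside 2284 and 2924 of the 12710 genes, the latter being 23.0%. The median log2 difference over the 39 was 0.09 with TCDD and 0.13 with Cl-BBQ, beside -0.00 and -0.01 over all tested genes, and the median absolute difference was 0.13 and 0.16, beside 0.13 and 0.14.

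The 95% interval of the log2 difference lay within 0.5 of 0 on both sides for 31 of the 39 with TCDD and for 31 with Cl-BBQ (79.5% each), compared with 61.5% and 62.1% of all tested genes. It lay within 1, a 2-fold change, for all 39 in both comparisons. The spread between replicates was small: the median within-group SD of the 39 was 0.11, against 0.20 over all tested genes, with 0.05 for Ptpn22 at the low end and 0.33 for Pag1 at the high end. These genes were also brighter, with a median level of 9.26 beside 6.16.

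**Figure D1:**
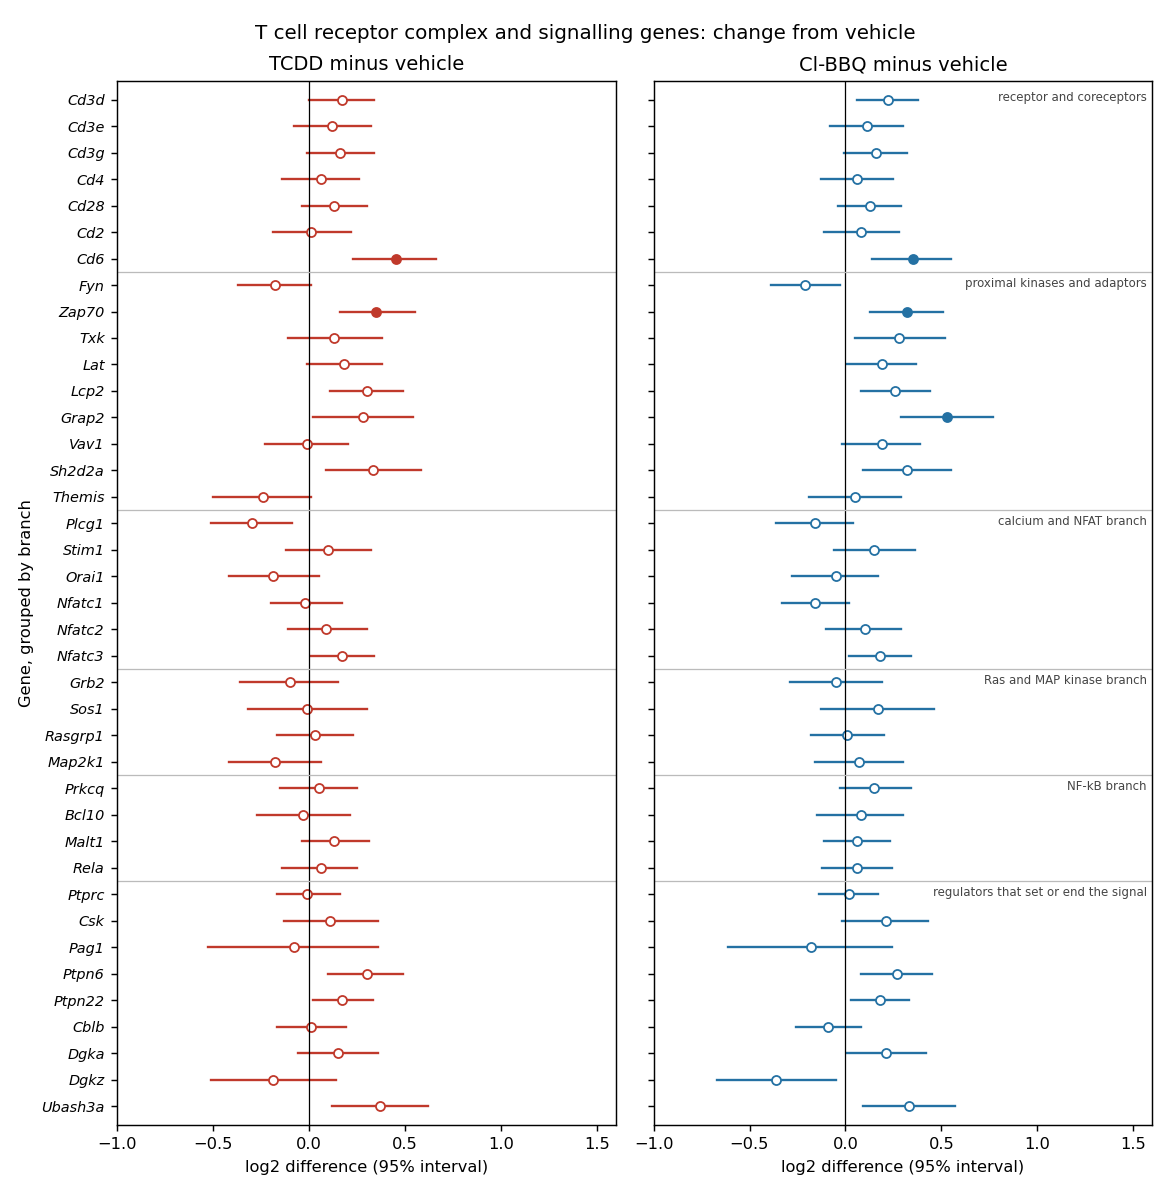
Log2 difference from vehicle (points) and 95% interval (lines) of the 39 genes, in rows grouped by branch, with TCDD on the left and Cl-BBQ on the right; filled points passed limma at an adjusted p under 0.05. Cd6 and Zap70 are filled on both sides and Grap2 with Cl-BBQ, and no interval reaches 1 in either direction.

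The number called depended on how limma shares the spread between genes. With a prior that follows expression level and is robust to outlying genes, 7 of the 39 were called with TCDD (17.9%, beside 7.84% of all genes) and 11 with Cl-BBQ (28.2%, beside 12.7%), all of them higher than vehicle. The genes added in at least one of these comparisons were Cd3d, Cd3g, Lat, Lcp2, Nfatc3, Ptpn6, Ptpn22 and Sh2d2a. Their differences were the same in both fits, between 0.16 and 0.33, and only their standard errors changed.

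Without any fit, all TCDD arrays lay above all vehicle arrays for 12 of the 39 genes and below them for 1, beside 6.31% of all tested genes above and 13.6% in either direction. With Cl-BBQ 11 lay above and 1 below, beside 6.08% above and 12.9% in either direction. Among the 7168 genes above a stricter floor of 6, closer to these genes in level, the shares in either direction were 19.0% and 18.7%.

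Vehicle replicate 3 lay low for many of these genes. It was the lowest of the 4 vehicle arrays for 21 of the 39 genes (53.8%, beside 33.9% of all tested genes) and for 6 of the 7 measured receptor and coreceptor genes. The median of the 39 genes on it was -0.10 relative to the vehicle mean, while the other vehicle arrays were at 0.01, 0.01 and 0.07. The TCDD arrays ranged from 0.06 to 0.10 on this scale and the Cl-BBQ arrays from 0.08 to 0.13. Without vehicle replicate 3 the median difference of the 39 genes was 0.06 with TCDD and 0.10 with Cl-BBQ. In that fit 1 and 2 of them were called (2.56% and 5.13%, beside 5.79% and 9.38% of all tested genes).

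**Figure D2:**
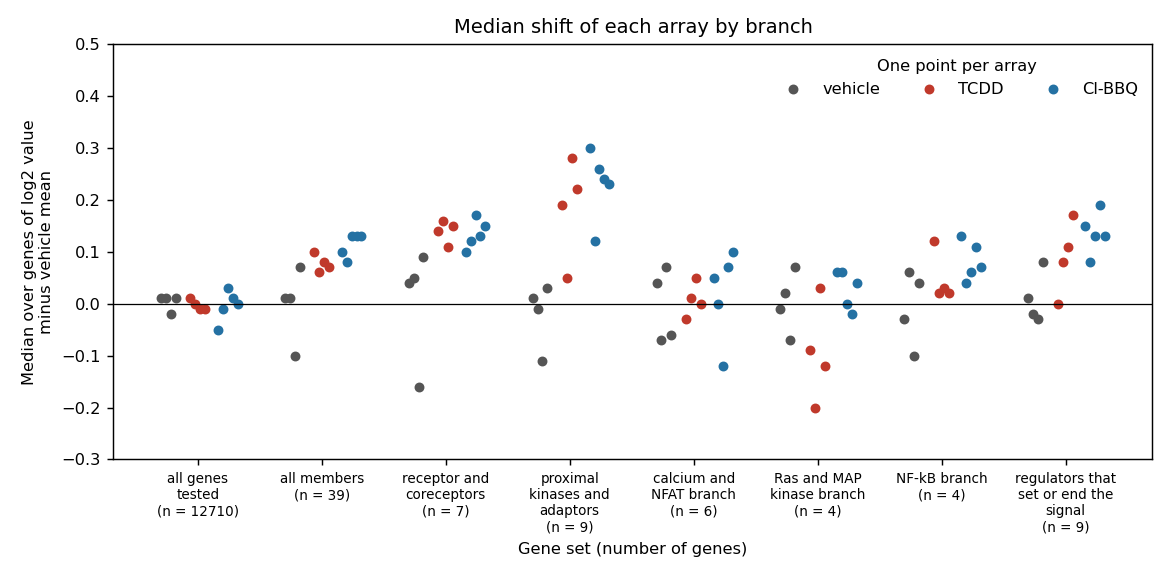
Median over the genes of a set of each array's log2 value minus the vehicle mean, with 1 point per array and the number of genes under each set. The vehicle array lowest in the receptor set is replicate 3, at -0.16, and the proximal kinases and adaptors show the highest treated arrays, up to 0.28 with TCDD and 0.30 with Cl-BBQ.

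The sorted cells carried the markers that define them. Cd3d, Cd3e, Cd3g, Cd28 and Cd4, whose product was the handle for the sort, were far above the floor on all 13 arrays, and the proliferation markers fell in both comparisons (7 of 7 measured, called by limma). Summed over the list, the proliferation markers ranged from 12.41 to 12.60 with vehicle, from 11.65 to 11.68 with TCDD and from 11.30 to 11.59 with Cl-BBQ on the log2 scale, and the part of this difference in the receptor values was not tested. No marker of CD8 T, B, myeloid, NK, dendritic or erythroid cells was called in any comparison. Of these markers Ms4a1, Lyz2, Itgam, Cd14, Adgre1, Flt3, Itgax, Zbtb46, Klrk1, Eomes, Xcr1 and Klf1 were below the floor. Above it were Cd8a, Cd8b1, Cd79a, Cd79b, Pax5, Blk, Csf1r, Fcgr3, Ncr1, Klrb1c, Siglech and Epor. The brightest were Cd8b1, with means of 6.74, 6.48 and 6.88 with vehicle, TCDD and Cl-BBQ, and Klrb1c, with 6.10, 5.77 and 5.60. Genes of 1 list differed in sign and size. With TCDD and Cl-BBQ, Cd8a differed from vehicle by 0.58 and 0.60 and Cd8b1 by -0.27 and 0.13. Ncr1 differed by 0.33 and 0.19 and Klrb1c by -0.33 and -0.50. Among B cell markers with Cl-BBQ, Cd79b differed by 0.64, Blk by 0.17, Pax5 by -0.02 and Cd79a by -0.20. The log2 summed B cell list (4 of 5 measured genes above the floor) ranged from 6.55 to 6.81 with vehicle, 6.60 to 6.91 with TCDD and 6.64 to 7.12 with Cl-BBQ, the myeloid list (2 of 6) from 6.47 to 6.60, 6.38 to 6.49 and 6.28 to 6.76, and the CD8 pair (2 of 2) from 6.76 to 7.07, 6.65 to 7.22 and 6.79 to 7.52. The NK list (2 of 4) ranged from 6.59 to 6.80 with vehicle, 6.19 to 6.78 with TCDD and 6.24 to 6.70 with Cl-BBQ, the dendritic list (1 of 5) from 6.30 to 6.38, 6.16 to 6.38 and 6.05 to 6.47, and the erythroid list (1 of 2) from 5.32 to 5.62, 5.18 to 5.51 and 5.34 to 5.77. Each of these sums takes every measured gene of its list, also those below the floor, so it includes values at background level. The part of these markers in the receptor values was not tested.

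Among the receptor and coreceptor genes, 7 were measured and Cd6 was called in both comparisons. Cd6 encodes a surface glycoprotein that docks next to the receptor, binds ALCAM on the presenting cell and tunes the signal. On the vehicle arrays Cd6 read 8.84, 8.83, 8.63 and 8.62, on the TCDD arrays 9.09, 9.11, 9.29 and 9.22 and on the Cl-BBQ arrays 9.28, 9.02, 8.89, 9.11 and 9.08. All treated arrays lay above all vehicle arrays, Cl-BBQ replicate 3 being the closest to them. The log2 difference was 0.45 ± 0.10 SE with TCDD (1.36-fold, limma, adjusted p = 0.014) and 0.35 ± 0.10 with Cl-BBQ (1.27-fold, adjusted p = 0.029). The call with Cl-BBQ was lost without Cl-BBQ replicates 1, 4 or 5 or vehicle replicates 3 or 4, where the adjusted p reached 0.092 (vehicle replicate 4 left out), while the call with TCDD was kept without any single array.

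The measured CD3 chains, which carry signalling motifs of the complex, differed from vehicle by at most 0.22. Cd3e read 12.07, 12.06, 11.79 and 12.16 with vehicle, 12.21, 12.21, 12.06 and 12.09 with TCDD and 12.09, 12.13, 12.22, 12.15 and 12.09 with Cl-BBQ. Those groups overlapped, and the difference was 0.12 ± 0.09 SE with TCDD and 0.11 ± 0.09 with Cl-BBQ (limma, adjusted p = 0.56 and 0.5). Without vehicle replicate 3, whose 11.79 was the lowest of the 13 arrays, the Cd3e difference was 0.04 in both comparisons. Cd3d stood at 11.97 ± 0.09 (SD, n = 4) with vehicle, 12.14 ± 0.04 (SD, n = 4) with TCDD and 12.19 ± 0.07 (SD, n = 5) with Cl-BBQ, without overlap with vehicle, and the differences of 0.17 and 0.22 did not pass (limma, adjusted p = 0.28 and 0.084). Cd3g differed by 0.16 in both comparisons (adjusted p = 0.32 and 0.24), the latter being 0.10 without vehicle replicate 3. With the prior that follows expression level, Cd3d passed in both comparisons (limma, adjusted p = 0.045 and 0.0039) and Cd3g with Cl-BBQ (0.046). Cd3d with Cl-BBQ also passed with the stricter floor of 6 (0.04) and after centring each array on its median (0.049).

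Cd4, the coreceptor that brings Lck to the receptor, read 10.58, 10.63, 10.27 and 10.59 with vehicle, 10.56, 10.68, 10.58 and 10.49 with TCDD and 10.62, 10.46, 10.58, 10.58 and 10.65 with Cl-BBQ. Vehicle replicate 3 alone was set apart, below the other 12 arrays. The difference was 0.06 in both comparisons, with intervals from -0.14 to 0.26 and from -0.13 to 0.25. Cd28, the main costimulatory receptor, differed by 0.13 in both (0.07 in both without vehicle replicate 3), and the adhesion receptor gene Cd2 by 0.01 with TCDD and 0.08 with Cl-BBQ, none of which passed.

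Of 9 measured proximal kinases and adaptors, Zap70 was called in both comparisons and Grap2 with Cl-BBQ. Their upstream sequences are shown because Zap70 and Grap2 are the called genes with an entry in the RefSeq promoter table (GRCm38.p6), and because the ligands act through a DNA-binding receptor. Capitals mark GCGTG or its reverse complement CACGC, the core letters bound by AhR and its partner, which were searched on both strands in windows from 250 bases before to 50 after each start; the 250 bases before the start are printed. The Zap70 window at chr1:36761548-36761797 (plus strand) is the most upstream of its 3 listed starts, chr1:36778734-36778983 (plus strand) the most downstream, and the Grap2 window lies at chr15:80623233-80623482 (plus strand).
Zap70 upstream start: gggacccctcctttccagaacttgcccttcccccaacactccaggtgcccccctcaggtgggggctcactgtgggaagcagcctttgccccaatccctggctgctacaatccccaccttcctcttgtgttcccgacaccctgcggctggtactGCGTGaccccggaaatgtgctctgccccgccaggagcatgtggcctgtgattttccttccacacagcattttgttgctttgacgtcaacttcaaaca
Zap70 downstream start: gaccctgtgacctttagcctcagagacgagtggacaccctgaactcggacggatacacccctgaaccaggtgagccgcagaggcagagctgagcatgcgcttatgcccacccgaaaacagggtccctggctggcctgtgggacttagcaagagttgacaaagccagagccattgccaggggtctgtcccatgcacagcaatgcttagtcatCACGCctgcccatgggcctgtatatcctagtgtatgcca
Grap2: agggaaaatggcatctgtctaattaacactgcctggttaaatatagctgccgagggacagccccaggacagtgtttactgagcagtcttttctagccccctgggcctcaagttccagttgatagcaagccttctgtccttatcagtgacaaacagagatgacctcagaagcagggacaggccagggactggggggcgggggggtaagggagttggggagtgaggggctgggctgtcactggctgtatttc
The match begins 97 bases before the upstream Zap70 start and 39 bases before the downstream one. These letters are not in the window of the third Zap70 start, between the others, nor in the Grap2 window. Of 31 tested member genes with windows, 15 (48.4%) held a match in at least one, as did 35.2% of all 27025 genes in the table; by window the shares were 37.8% of 45 and 32.4% of 32851. A match describes the letters only.

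Zap70, the kinase that binds the phosphorylated CD3 tails, read 9.73, 9.63, 9.53 and 9.68 with vehicle, 10.11, 10.05, 9.96 and 9.86 with TCDD and 9.79, 9.96, 10.08, 9.95 and 10.04 with Cl-BBQ. Every treated array was above every vehicle array, by a narrow margin for Cl-BBQ replicate 1. The difference was 0.35 ± 0.09 SE with TCDD (1.28-fold, limma, adjusted p = 0.032) and 0.32 ± 0.09 with Cl-BBQ (1.25-fold, adjusted p = 0.027). The TCDD call was lost without TCDD replicates 1, 2 or 3 or vehicle replicates 2, 3 or 4 (highest adjusted p 0.099, TCDD replicate 1 left out), and the Cl-BBQ call without Cl-BBQ replicates 3 or 5 or vehicle replicates 2, 3 or 4 (highest 0.081, vehicle replicate 3 left out).

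Grap2 encodes GADS, the adaptor that ties SLP-76 to LAT. Grap2 read 8.03, 8.04, 8.26 and 8.05 with vehicle, 8.36, 8.40, 8.47 and 8.28 with TCDD and 8.55, 8.39, 8.55, 8.63 and 9.01 with Cl-BBQ. The vehicle arrays were the lowest, the TCDD arrays came just above vehicle replicate 3, and Cl-BBQ replicate 5 was the highest of all. The difference was 0.53 ± 0.11 SE with Cl-BBQ (1.44-fold, limma, adjusted p = 0.006), the largest among the 39 in either comparison and called in all 21 alternative fits. With TCDD it was 0.28 ± 0.12 (adjusted p = 0.22). Between the ligands the difference was 0.25, with an interval from 0.00 to 0.49 and an adjusted p of 0.76.

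Lat, the membrane scaffold of the pathway, read 11.43, 11.37, 11.46 and 11.41 with vehicle, 11.58, 11.46, 11.70 and 11.65 with TCDD and 11.47, 11.54, 11.68, 11.77 and 11.58 with Cl-BBQ. All treated arrays lay above all vehicle arrays, though TCDD replicate 2 and vehicle replicate 3 both read 11.46 when rounded, and the differences of 0.18 and 0.19 did not pass (limma, adjusted p = 0.3 and 0.19). Lcp2, which encodes SLP-76, was at 10.54 ± 0.13 (SD, n = 4) with vehicle, 10.84 ± 0.07 (SD, n = 4) with TCDD and 10.79 ± 0.07 (SD, n = 5) with Cl-BBQ, with adjusted p of 0.059 and 0.068 by limma, and passed in both comparisons without vehicle replicate 4 (0.025 and 0.027). Over the other arrays left out singly the adjusted p of Lcp2 reached 0.16 with TCDD (TCDD replicate 2) and 0.18 with Cl-BBQ (vehicle replicate 1). With the stricter floor of 6 Lcp2 passed in both (limma, adjusted p = 0.027 and 0.034). With TCDD alone it also passed after quantile normalization again (0.04) and after centring each array on its median (0.049). It did not pass with no floor or with the replicate block. Sh2d2a, an adaptor that binds Lck, differed by 0.33 and 0.32 (adjusted p = 0.11 and 0.077), and passed with Cl-BBQ without vehicle replicate 1 (0.047). With Cl-BBQ it also passed with the floor of 6 (limma, adjusted p = 0.043) and after centring (0.0498). Without vehicle replicate 3 the Sh2d2a differences were 0.21 and 0.20 (adjusted p = 0.24 and 0.19).

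Some of the kinases and adaptors had negative differences. Fyn, the Src-family kinase that acts beside Lck, differed by -0.18 with TCDD and -0.21 with Cl-BBQ, where all 5 arrays lay below all vehicle arrays, the closest pair both reading 9.28 when rounded (limma, adjusted p = 0.3 and 0.14). Themis, which sets the threshold of the signal in thymocytes, differed by -0.24 with TCDD and 0.05 with Cl-BBQ (adjusted p = 0.3 and 0.86). The Tec-family kinase gene Txk differed by 0.13 and 0.28, and Vav1, an exchange factor for Rac, by -0.01 and 0.19, and none of these passed.

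**Figure D3:**
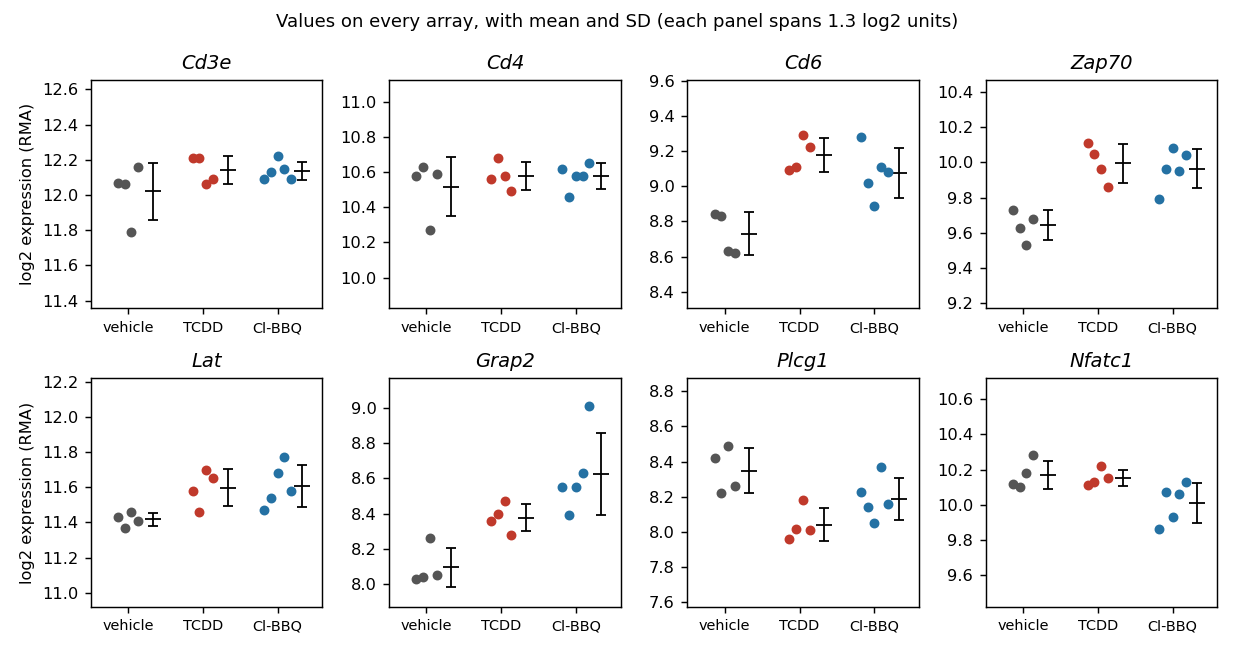
Log2 expression of 8 genes on every array (points), with the group mean and SD beside the points (4 vehicle, 4 TCDD and 5 Cl-BBQ arrays); every panel spans the same number of log2 units around its own centre, since levels of different probe sets are not comparable. Treated arrays of Cd6, Zap70 and Grap2 sit above all vehicle arrays, those of Cd3e, Cd4 and Nfatc1 overlap them, and the TCDD arrays of Plcg1 sit below.

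None of 6 genes of the calcium and NFAT branch was called by limma. At an unadjusted p under 0.05 were 2 with TCDD and 1 with Cl-BBQ, beside 2284 and 2924 of all 12710 tested genes. With the level-dependent prior none and 1 (Nfatc3) were called, beside 7.84% and 12.7% of all tested genes. The same background applies to the branches that follow. Plcg1, the phospholipase that makes the calcium-releasing messenger, read 8.42, 8.22, 8.49 and 8.26 with vehicle, 7.96, 8.02, 8.18 and 8.01 with TCDD and 8.23, 8.14, 8.05, 8.37 and 8.16 with Cl-BBQ. The TCDD arrays were all below the vehicle arrays and the Cl-BBQ arrays overlapped them. The difference was -0.30 ± 0.10 SE with TCDD (limma, adjusted p = 0.09) and -0.16 ± 0.09 with Cl-BBQ (adjusted p = 0.35). With the stricter floor of 6 the TCDD difference was called.

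Further along this branch, Stim1, the calcium sensor of the endoplasmic reticulum, differed by 0.10 and 0.15, and Orai1, the channel it opens, by -0.19 and -0.05. Nfatc1, whose short form is induced by activation, read 10.12, 10.10, 10.18 and 10.28 with vehicle, 10.11, 10.13, 10.22 and 10.15 with TCDD and 9.86, 10.07, 9.93, 10.06 and 10.13 with Cl-BBQ. Cl-BBQ replicates 1 to 4 were the lowest 4 of the 13 arrays, replicate 5 lay among the other groups, and the differences were -0.02 ± 0.09 SE and -0.16 ± 0.08 (limma, adjusted p = 0.94 and 0.27). The NFAT genes Nfatc2 and Nfatc3 differed by 0.09 and 0.17 with TCDD and by 0.10 and 0.18 with Cl-BBQ.

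The Ras and MAP kinase branch had 4 measured genes, none called by limma and none at an unadjusted p under 0.05 in either comparison with vehicle, nor called with the level-dependent prior. Rasgrp1, the diacylglycerol-driven exchange factor of Ras in T cells, differed by 0.03 and 0.01, and Sos1, the exchange factor carried by Grb2, by -0.01 and 0.17. Grb2 itself, the adaptor linking LAT to SOS, differed by -0.10 and -0.05. Map2k1, the kinase that activates ERK, was at 7.11 ± 0.03 (SD, n = 4) with vehicle, 6.93 ± 0.24 (SD, n = 4) with TCDD and 7.18 ± 0.12 (SD, n = 5) with Cl-BBQ.

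The 4 measured genes of the NF-kB branch were likewise not called by limma, with none at an unadjusted p under 0.05 and none with the level-dependent prior. Prkcq, protein kinase C theta, differed by 0.05 with TCDD and 0.15 with Cl-BBQ, and Rela, a subunit of NF-kB, by 0.06 in both. Bcl10 and Malt1, the partners of the complex that activates the IkB kinases, differed by -0.03 and 0.13 with TCDD and by 0.08 and 0.06 with Cl-BBQ. All 4 intervals lay between -0.27 and 0.31 with TCDD and between -0.15 and 0.34 with Cl-BBQ.

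Of 9 genes that set or end the signal, none was called by limma. At an unadjusted p under 0.05 were 3 with TCDD and 5 with Cl-BBQ, beside 2284 and 2924 of all 12710 tested genes. With the level-dependent prior 2 were called in each (Ptpn6 and Ptpn22), beside 7.84% and 12.7% of all tested genes. With 9 genes these shares rest on few genes, and whether they differ from the background was not tested. Ptpn6, which encodes the phosphatase SHP-1, was at 9.59 ± 0.08 (SD, n = 4) with vehicle, 9.89 ± 0.14 (SD, n = 4) with TCDD and 9.86 ± 0.09 (SD, n = 5) with Cl-BBQ, with no overlap with vehicle (limma, adjusted p = 0.071 and 0.067), and it passed with TCDD without TCDD replicate 2 (0.036, against 0.19 without TCDD replicate 3). Ptpn22, the phosphatase that acts on Lck and ZAP-70 with Csk, differed by 0.17 and 0.18, also without overlap (adjusted p = 0.22 and 0.13). Ubash3a, a protein that lowers receptor signalling, differed by 0.37 and 0.33 (adjusted p = 0.085 and 0.079) and passed in both comparisons without vehicle replicate 2 (0.049 and 0.042, against 0.23 without TCDD replicate 3 and 0.22 without vehicle replicate 3). With the stricter floor of 6, Ptpn6 (limma, adjusted p = 0.034 in both) and Ubash3a (0.047 and 0.045) passed. After centring each array on its median, Ptpn6 passed in both (0.046 and 0.04) and Ubash3a with Cl-BBQ (0.047). Neither passed with no floor or with the replicate block.

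The other genes of this group varied in sign. Csk, the kinase that silences Lck, differed by 0.11 and 0.21, and Pag1, its membrane anchor and the dimmest of the 39, by -0.08 and -0.18. Ptprc, the phosphatase CD45 that keeps Lck ready, differed by -0.01 and 0.02, and the ubiquitin ligase gene Cblb by 0.01 and -0.09. The diacylglycerol kinases, which remove the messenger used by Rasgrp1 and Prkcq, differed in sign: Dgka was at 0.15 and 0.21 and Dgkz at -0.19 and -0.36, with no call among them except Dgkz with Cl-BBQ without vehicle replicate 3 (limma, adjusted p = 0.035, against 0.34 without vehicle replicate 4). The Dgkz difference with TCDD was -0.32 and -0.10 without those arrays in turn. The further probe set of Dgkz read 7.36, 7.33 and 7.03 as means with vehicle, TCDD and Cl-BBQ, the same order as the 9.04, 8.85 and 8.68 of the brighter set.

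Compared with each other, Cl-BBQ and TCDD gave no called difference in any of the 39 genes (limma, 3 at an unadjusted p under 0.05, and none called with the level-dependent prior), where 0.0236% of all genes were called and 6.41% had an unadjusted p under 0.05. The 3 were Themis (0.29, interval 0.05 to 0.53), Grap2 and Map2k1 (0.25, interval 0.02 to 0.48), all higher with Cl-BBQ. Arrays of the 2 ligands did not overlap for 2 of the 39, Themis and Vav1, both higher with Cl-BBQ, against 1.03% of all tested genes higher, 1.08% lower and 2.11% in either direction, or 2.48% above the stricter floor of 6. The closest arrays of the 2 ligands both read 8.45 for Themis when rounded, and 8.05 and 8.06 for Vav1. The interval of the difference lay within 0.5 of 0 for 37 of the 39 (94.9%, beside 74.9% of all genes). The lowest bound was -0.52, for Pag1, and the highest 0.53, for Themis, so that differences of this size between the regimens remain possible.

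Other genes of the pathway were counted the same way, 115 in a list written from general knowledge, of which 101 were tested. The list was written with earlier results of these data known, so its shares are descriptive and no independent support. With TCDD 13 were called higher and 2 lower by limma, beside 3.21% and 3.5% of all genes in these directions, and with Cl-BBQ 19 and 4, beside 5.31% and 6.03%. That is 14.9% of the list with TCDD and 22.8% with Cl-BBQ. With the level-dependent prior the shares were 18.8% and 25.7%, beside 17.9% and 28.2% of the core genes, and whether the lists differ was not tested. At least 2-fold among called genes were 3 of the 101 (2.97%) with TCDD and 7 (6.93%) with Cl-BBQ, beside 1.72% and 2.86% of all tested genes and 0 of the 39 core genes. Both comparisons use the same vehicle arrays, so their counts are not independent. Without vehicle replicate 1 the TCDD count was 9 in all.

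**Figure D4:**
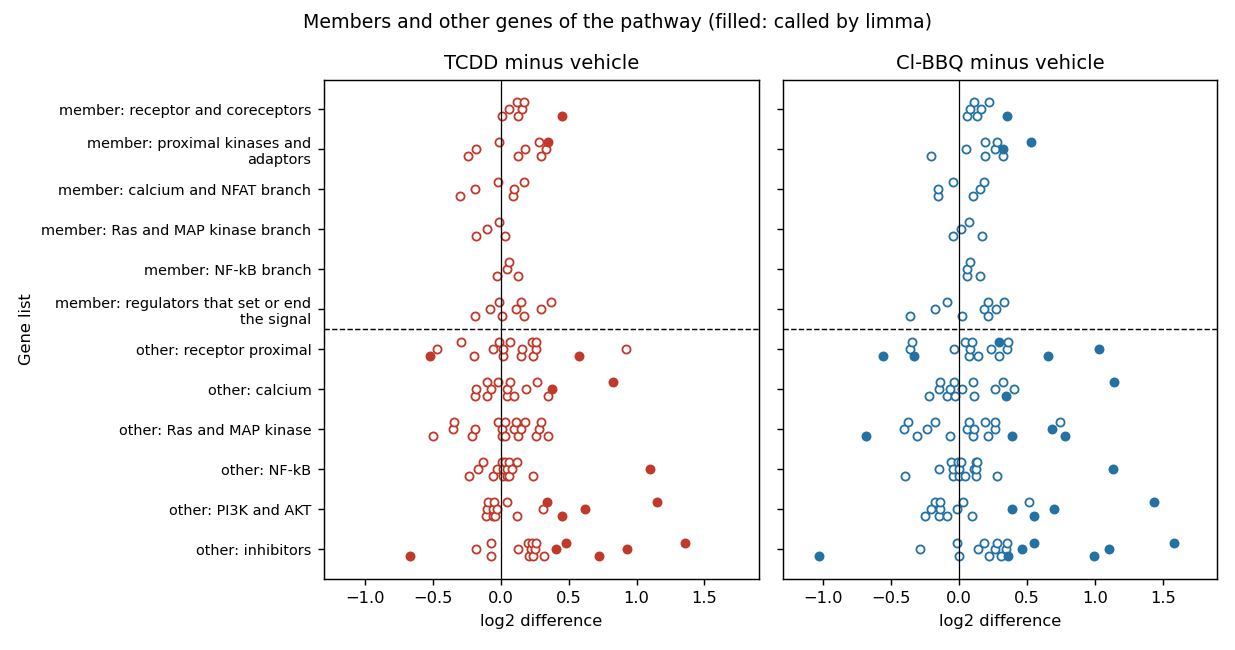
Log2 difference from vehicle of each gene (points, 1 per gene) in the 6 groups of core genes above the dashed line and the 6 lists of other pathway genes below it; filled points passed limma at an adjusted p under 0.05. The core genes stay between -0.36 and 0.53, and the lists below reach from -1.03 to 1.58.

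The list of inhibitors had the most calls for its size, 5 higher and 1 lower of 18 with TCDD and 6 and 1 with Cl-BBQ. That is 33.3% and 38.9%, beside 6.71% and 11.3% of all tested genes. The other lists had from 0.0% to 26.7% with TCDD and from 5.88% to 29.4% with Cl-BBQ. This order depends on how genes were placed, since Sit1, Dusp5, Lax1 and Spry1, which also limit signalling, stand in other lists. Sla2, an adaptor that sends receptor chains for degradation, read 7.85, 7.88, 7.54 and 7.90 with vehicle, 8.86, 8.70, 8.71 and 8.62 with TCDD and 8.76, 8.87, 9.10, 8.86 and 8.89 with Cl-BBQ. The groups were well apart, and it rose by 0.93 ± 0.10 SE (limma, adjusted p = 5.2e-05) and 1.10 ± 0.10 (2.9e-06). Cish, a SOCS-family inhibitor induced by cytokines, rose 2.56-fold and 2.98-fold, and Dok1, an adaptor that recruits the brake of Ras, 1.65-fold and 1.99-fold. The call of Dok1 with TCDD was lost without TCDD replicates 1 or 4 or vehicle replicates 1 or 3 (highest adjusted p 0.079, vehicle replicate 3 left out). Ptpn11, which encodes SHP-2, a phosphatase that also promotes Ras signalling, read 8.25, 8.02, 8.12 and 8.17 with vehicle, 7.57, 7.57, 7.23 and 7.49 with TCDD and 7.28, 6.82, 7.23, 7.09 and 7.12 with Cl-BBQ. It fell by 0.67 with TCDD and by 1.03 with Cl-BBQ on the log2 scale (adjusted p = 0.0017 and 1.3e-05).

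Of 15 genes of the PI3K and AKT list, 4 rose in each comparison and none fell. This share of 26.7% stands beside 3.21% of all tested genes called higher with TCDD and 5.31% with Cl-BBQ. Pik3r5, a regulatory subunit of the gamma form of the kinase, went from 6.06 ± 0.11 (SD, n = 4) in the vehicle group to 7.22 ± 0.16 (SD, n = 4) with TCDD and 7.49 ± 0.13 (SD, n = 5) with Cl-BBQ. Inpp5d, which encodes the opposing lipid phosphatase SHIP-1, rose 1.54-fold and 1.62-fold, and Pik3cd, the catalytic subunit most used in lymphocytes, 1.37-fold and 1.47-fold. Pik3r1, its regulatory partner, rose 1.27-fold and 1.31-fold. With TCDD the call of Pik3cd was lost without TCDD replicates 3 or 4 or vehicle replicates 1 or 2 (adjusted p of up to 0.08), and that of Pik3r1 without Cl-BBQ replicate 5, any TCDD array or vehicle replicates 1, 3 or 4 (up to 0.12).

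**Figure D5:**
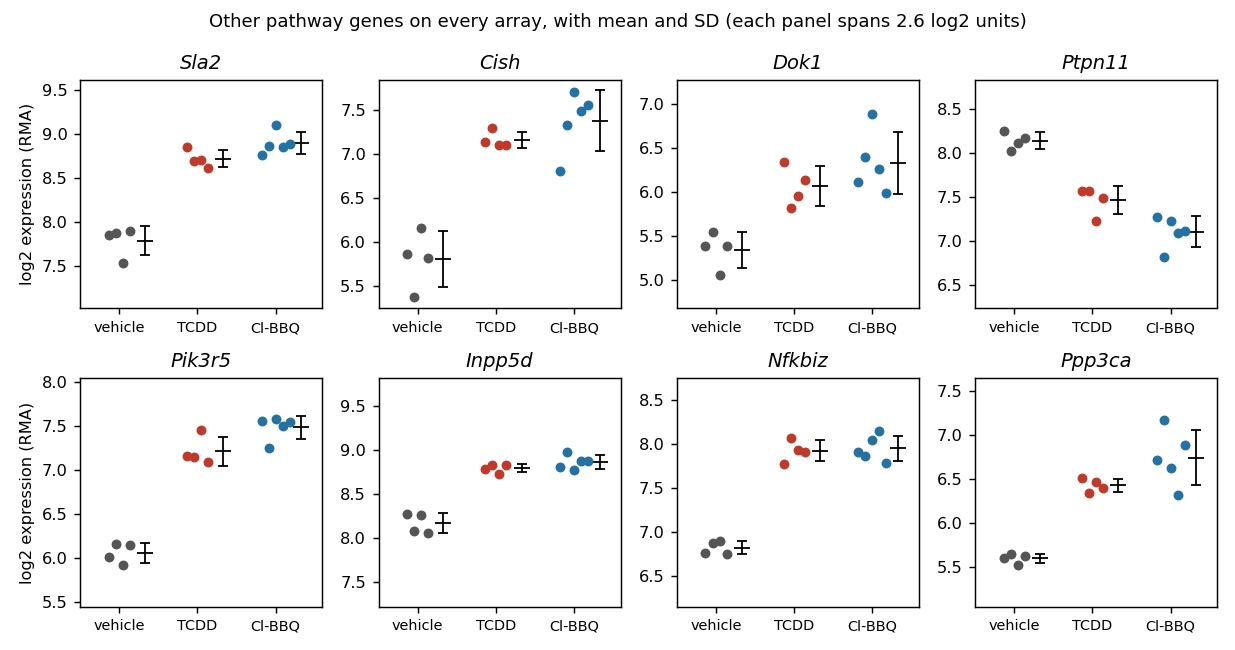
Log2 expression of 8 other pathway genes on every array (points), with group mean and SD beside the points (4 vehicle, 4 TCDD and 5 Cl-BBQ arrays). The 8 are called genes chosen after their values were seen. Every panel spans the same number of log2 units, more than in the plot of core genes. No treated array reaches the vehicle arrays for any of the 8, and Ptpn11 alone of them is lower with the ligands.

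In the NF-kB list 1 of 17 genes was called in each comparison (5.88%, beside 6.71% and 11.3% of all tested genes). It was Nfkbiz, a nuclear IkB protein that steers NF-kB targets, at 6.82 ± 0.07 (SD, n = 4) with vehicle, 7.92 ± 0.12 (SD, n = 4) with TCDD and 7.94 ± 0.14 (SD, n = 5) with Cl-BBQ (limma, adjusted p = 7.0e-06 and 1.3e-06). In the calcium list 2 of 15 rose in each (13.3%, beside 3.21% and 5.31% of all tested genes called higher). Ppp3ca, a catalytic subunit of calcineurin, the phosphatase that activates NFAT, rose 1.78-fold and 2.21-fold. Atp2b1, a calcium pump of the plasma membrane, rose by 0.38 and 0.34 on the log2 scale. Both calls were lost when any single vehicle array was left out, the TCDD call also without TCDD replicates 1, 2 or 3 (highest adjusted p 0.11) and the Cl-BBQ call without Cl-BBQ replicates 2, 3 or 5 (highest 0.077).

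Among 19 genes of the Ras and MAP kinase list none was called with TCDD by limma (6 at an unadjusted p under 0.05, and 1 called with the level-dependent prior, Rasa1, higher), and 3 rose and 1 fell with Cl-BBQ. Dusp5, a phosphatase of ERK, rose 1.61-fold, the kinase gene Map4k1, whose product restrains SLP-76, 1.31-fold, and the AP-1 gene Fos 1.72-fold, while Spry1, an inhibitor of Ras activation, fell by 0.69 on the log2 scale. The call of Map4k1 was lost without vehicle replicate 3 (adjusted p = 0.053) and that of Fos without Cl-BBQ replicates 1 or 3 or vehicle replicates 1 or 4 (up to 0.088). Spry1 was called with TCDD without vehicle replicate 4 (adjusted p = 0.04, against 0.23 without vehicle replicate 3). The differences of these genes between the ligands did not pass (limma, adjusted p = 0.75 for Fos and Dusp5, 0.9 for Map4k1 and 0.91 for Spry1).

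Of 17 other receptor-proximal genes, 1 rose and 1 fell with TCDD and 3 rose and 2 fell with Cl-BBQ. Called shares were 11.8% and 29.4%, beside 6.71% and 11.3% of all tested genes. Cd27, a costimulatory receptor of the TNF receptor family, went from 9.83 ± 0.29 (SD, n = 4) in the vehicle group to 10.41 ± 0.03 (SD, n = 4) with TCDD and 10.48 ± 0.07 (SD, n = 5) with Cl-BBQ (limma, adjusted p = 0.0069 and 0.0011). Lax1, a membrane adaptor that limits signalling, fell by 0.52 and 0.56 on the log2 scale, the former call being lost without TCDD replicates 1, 3 or 4 or vehicle replicates 1, 2 or 4 (adjusted p of up to 0.11). Sit1, an inhibitory adaptor, rose 2.05-fold with Cl-BBQ, and with TCDD was at 0.92 ± 0.27 SE (adjusted p = 0.054), called there without Cl-BBQ replicate 1 (0.04) and at 0.16 without TCDD replicate 1. Slamf6, a receptor of the SLAM family, fell by 0.33 with Cl-BBQ, a call lost without vehicle replicate 1 (0.052), by 0.59 with the mean of its probe sets in place of the brightest, and with TCDD was at -0.29 (adjusted p = 0.067), called without Cl-BBQ replicate 1 (0.049) and at up to 0.18 without another array (TCDD replicate 1).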

How the data were processed

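Gene expression was measured on 13 single-colour arrays. Per the submitters' processing notes the authors made the log2 values with RMA. As a method RMA consists of background correction, quantile normalization and median polish over the probes of a set. Those notes name no version. Quantile normalization hides any shift common to all transcripts. Median polish can give several arrays one value: 15 of the 39 genes (38.5%, beside 39.6% of all tested genes) had equal values on 2 or more arrays, up to 5 for Pag1, which can narrow their spread.

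The platform annotation gave 23521 of 41345 probe sets 1 symbol and 1814 several, and names were updated by gene identifier to the GRCm38.p6 gene table. Per gene the probe set with the highest mean was kept.

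limma 3.58.1 (R 4.3.3) fitted 3 group means to all arrays (10 residual and 4.22 prior degrees of freedom), two-sided, with Benjamini-Hochberg adjustment over the 12710 tested genes, and was tested on simulated data. SE and 95% intervals come from this fit. The array number limits the precision. Genes, lists and tests were chosen with earlier results of these data known. Named were all members, with every array for called ones and for Cd3e, Cd4, Lat and Nfatc1, plus Plcg1, chosen after its values were seen. Of other pathway genes, up to 4 called per list with the smallest adjusted p were named. Those shown array by array, 2 in the text and more in a figure, were also chosen after their values were seen. Same-numbered replicates showed no shared deviation, with correlations between -0.059 and 0.075 over 12 pairs. The labels give a replicate number only, so whether same-numbered arrays belong together is not known.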

Additional observations from a re-analysis of the deposited data

Results flagged for a closer look

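The lowest or highest array of a group stood far from the others of its group in 8 of 117 groups examined (39 genes in 3 groups), by Dixon's test at the 95% level, and chance alone flags about 1 group in 20. With vehicle, replicate 3 was low for Cd4 (10.27, the others 10.58 to 10.63) and high for Grap2 (8.26, the others 8.03 to 8.05), and replicate 4 was high for Map2k1 (7.15, the others at 7.09) and Pag1 (5.90, the others 5.50 to 5.52). In the latter pair the close agreement of the other arrays includes exactly equal values. With TCDD, replicate 3 was low for Cd3d (12.08, the others 12.15 to 12.17) and replicate 1 high for Nfatc2 (7.62, the others 7.41 to 7.44). With Cl-BBQ, replicate 1 was high for Vav1 (8.53, the others 8.06 to 8.19) and replicate 4 low for Malt1 (9.60, the others 9.71 to 9.74). Of these genes Grap2 alone was called in a comparison as reported, with Cl-BBQ, and it was called without vehicle replicate 3 too.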

How the results depend on the processing

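The count of called core genes depended on the fit. With TCDD (2 as reported) it was 1 with no floor (2.56%, beside 3.09% of all genes there). It was 6 with the floor of 6 (15.8% of 38, beside 12.5%) and 4 after centring each array on its median (10.3%, beside 6.9%). It was 7 with the level-dependent robust prior (17.9%, beside 7.84%) and 0 with the replicate block (beside 5.62%). With Cl-BBQ (3 as reported) it was 1 with no floor (2.56%, beside 5.27%) and 8 with the floor of 6 (21.1%, beside 19.2%). It was 7 after centring (17.9%, beside 11.3%) and 11 with the level-dependent prior (28.2%, beside 12.7%). It was 1 with only the arrays of the 2 groups compared (2.56%, beside 9.74%) and 1 with the replicate block (2.56%, beside 8.76%). Leaving out 1 array gave 1 to 2 core genes with TCDD, 1 to 4 with Cl-BBQ and 0 between the ligands, and 9 to 18, 18 to 25 and 0 of the other pathway genes. The labels do not say whether same-numbered arrays belong together, and their deviations showed no correlation. Calls lost under the block are therefore given without a reading. Quantile normalization again and the mean of probe sets moved no count by over 1.5 times. Over 3645 gene values from alternatives, 3520 kept their side of the threshold, 81 lost a call, 44 gained one and no called one changed sign. Of 174 differences, 39 uncalled ones, at most 0.11 in size, changed sign in some alternative. Of 52 core differences from vehicle of at least 0.1, leaving out 1 array moved 22 by over 1.5 times, none of them of Cd6, Zap70 or Grap2, and vehicle replicate 3 did so for 10. Pag1, the dimmest of the 39, had the widest intervals.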
